A study of Homo sapiens with 34 samples.

Results

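BV-173 is an established human B-cell precursor leukaemia line from the lymphoid blast phase of chronic myeloid leukaemia, and it carries the BCR-ABL fusion kinase. Palbociclib, an inhibitor of the cyclin-dependent kinases CDK4 and CDK6, was given to these cells at 1 µM, and RNA was collected on day 3. The control cells received the solvent DMSO for the same time. The comparison took in every gene of the table that pairs these conditions, and it rests on 5 of the 34 samples of the study, 3 with palbociclib and 2 with DMSO. The same study treated NALM-6 cells (ETV6-PDGFRB) and RS4;11 cells (MLL-AF4), which are other B-cell acute lymphoblastic leukaemia lines, in the same way, with 3 palbociclib and 3 DMSO samples each. It also transduced BV-173 cells with a lentiviral shRNA against *CCND3* or a scrambled shRNA, with 3 samples each, and sorted the transduced cells on day 4. All of these are single established lines grown in culture.

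The values are levels of polyadenylated RNA, 1 per gene and group, on a scale that is not given in the sources used here. No value per sample is used here, so neither an SD nor a test of a difference can be given, and how deeply each sample was sequenced is unknown. A change is described by the ratio of the palbociclib level to the DMSO level, written as a fold, as a percentage or as a log2 ratio. The words rose and fell are kept for genes that moved at least 1.5-fold, a log2 ratio of 0.58. Genes with a mean of both levels of at least 10 are called measured. As a yardstick with no error attached, the scrambled shRNA level of the same line is given beside many genes, including those that rose or fell against DMSO but lie within 1.5-fold of it. It comes from another table, which may be on another scale, and from transduced and sorted cells. Over 11215 genes measured in both controls, 11.3% lay at least 1.5-fold apart between scrambled shRNA and DMSO, 5.2% higher and 6.06% lower with scrambled shRNA.

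The labelled cell type was checked against its markers. All 14 B-cell precursor markers were measured with DMSO, at levels from 1047 to 17068, the highest being *IGLL1*, a surrogate light chain gene. The T-cell markers were near the bottom of the scale, with *CD3G* at 0.41 and the other 3 not listed. Erythroid and megakaryocytic markers were no higher than 2.87. Of the NK and myeloid markers, *NKG7* reached 656 and *CSF1R* 145 with DMSO, while *CD14* was at 0.58 and *ELANE* at 0.203.

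In the cell cycle, D-type cyclins bind CDK4 or CDK6 and the complexes phosphorylate RB and its relatives, the pocket proteins. Phosphorylated RB releases E2F factors, which switch on genes of DNA replication. Genes of mitosis are read later in the cycle through the MuvB core complex with MYBL2 and FOXM1, and the same core silences them in resting cells together with a pocket protein. In B-cell precursors the cycle alternates with recombination of the immunoglobulin loci by RAG1 and RAG2.

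The table listed 14797 genes, of which 11305 were measured. With palbociclib, 3268 of these (28.9%) lay at least 1.5-fold from the DMSO level, 1650 higher (14.6%) and 1618 lower (14.3%). Scaled to the same sum the counts were 1397 and 1906, and at a minimum level of 100 they were 1100 and 1376. At least 2-fold changes were seen for 1277 genes (11.3%), 589 higher (5.21%) and 688 lower (6.09%), and at least 4-fold changes for 180 genes (1.59%), 79 higher (0.699%) and 101 lower (0.893%). The median log2 ratio was −0.00 with an SD over genes of 0.67. The share past 1.5-fold was 46.9% of the 1689 genes with a mean level between 10 and 100, 28.2% of the 5390 between 100 and 1000, 22.2% of the 3998 between 1000 and 10000 and 30.3% of the 228 above that. At the bottom of the scale the ratios were narrow, from −0.79 to 0.58 on the log2 scale in all 1878 genes with a mean level under 1. Other genes below the minimum of 10 did pass 1.5-fold, since with no minimum the counts were 2014 higher and 1759 lower.

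**Figure D1:**
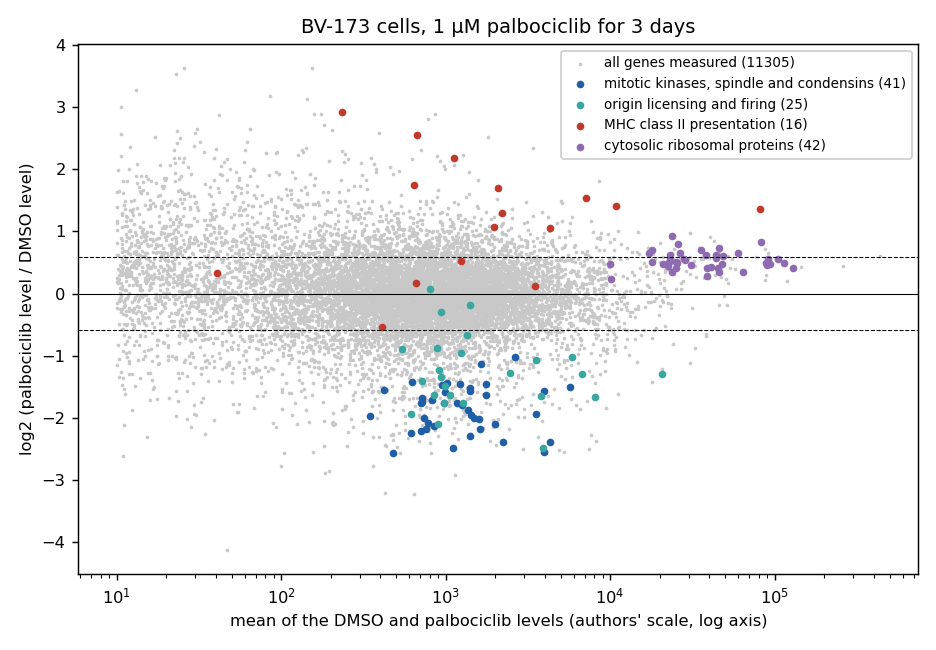
Each dot is 1 of the 11305 measured genes in BV-173, with the mean of its DMSO and palbociclib levels on a log axis (authors' scale) and the log2 ratio of palbociclib over DMSO on the other; dashed lines mark 1.5-fold. The 41 mitotic genes all lie below the lower line, the origin licensing genes mostly so, most MHC class II genes lie above the upper line, and the ribosomal protein genes sit at the high-level end just above 0.

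The 10 largest falls among genes with a mean level of at least 100 were led by *NIBAN1*, a stress-responsive gene on chromosome 1 (184791032 to 184974508 in GRCh38.p14). Its level was 1156 with DMSO and 124 with palbociclib, 10.7% of the control. The scrambled shRNA level was 630, between both. *SPNS3*, a member of the spinster transporter family, stood at 771 with DMSO and 83.3 with palbociclib. *CKAP2L*, which encodes a spindle protein, went from 2001 to 265. *INHBE*, an activin subunit gene, went from 327 to 44.2, and *CTNNAL1*, an alpha-catenin relative, from 345 to 47.9. The remaining members of the 10 were *NEIL3*, a DNA glycosylase, *DMC1*, a meiotic recombinase, *HJURP*, the chaperone of the centromeric histone, *NEK2*, a centrosomal kinase, and *E2F8*, a repressor E2F. Their palbociclib levels were between 14.6% (*NEIL3* and *DMC1*) and 16.9% of the DMSO level.

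Promoter stretches of 4 of these genes are shown because they hold words through which the cell cycle machinery is known to act. Capitals mark TTTGAA, the core of the cell cycle homology region (CHR) bound by MuvB, or TTTGGCGC, one of the E2F words searched. All are 5′ to 3′ on the strand of the gene, from the RefSeq promoter windows of GRCh38.p14. They lie at chr2:112764594-112764653 on the minus strand (*CKAP2L*), chr4:177309823-177309882 on the plus strand (*NEIL3*), chr2:233854614-233854673 on the minus strand (*HJURP*) and chr22:38570155-38570216 on the minus strand (*DMC1*).
CKAP2L: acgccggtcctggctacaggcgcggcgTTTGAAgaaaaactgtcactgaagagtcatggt
NEIL3: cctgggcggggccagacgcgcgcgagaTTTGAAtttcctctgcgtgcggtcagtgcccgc
HJURP: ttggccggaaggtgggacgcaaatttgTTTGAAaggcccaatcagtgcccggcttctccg
DMC1: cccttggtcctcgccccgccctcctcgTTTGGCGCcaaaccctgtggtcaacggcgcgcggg

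Counted from the annotated start, the word began at position −17 in *CKAP2L*, −24 in *NEIL3* and −111 in *HJURP*, and the E2F word of *DMC1* began at −6. A match to these letters is a description of the window and not a binding site.

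Among the rises with a mean level of at least 100, the largest was in *CCR6*, a chemokine receptor gene of B cells on chromosome 6 (167111795 to 167139141). Its level was 23.1 with DMSO and 286 with palbociclib, 12.4-fold higher, and 36.7 with scrambled shRNA. *TP53INP1*, a p53-induced gene that also acts in autophagy, rose from 29.5 to 257, 8.73-fold, and the scrambled control lay between both. *HLA-DMB*, which helps to load peptides on MHC class II, rose from 55.3 to 417, 7.54-fold, with 56.4 in the scrambled control. *ENPP2*, the gene of the enzyme autotaxin, rose 7.41-fold, from 41.4 to 307.

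The other large rises follow with their scrambled levels. *MS4A1*, which encodes the CD20 antigen of mature B cells, was at 205 with DMSO and 1517 with palbociclib but at 1604 with scrambled shRNA, so its rise of 7.40-fold held against DMSO and not against the scrambled control. *MFAP5*, the gene of an extracellular matrix glycoprotein, rose from 196 to 1376, with 279 in the scrambled control and 1191 after *CCND3* knockdown. *DBNDD1* rose from 56.5 to 351 and *HOTS*, an antisense gene at the H19 locus, from 48.0 to 316, with scrambled levels of 191 and 175. The readthrough gene *TNFAIP8L2-SCNM1* shares reads with both genes it joins, so its values, 37.7 and 279 with 48.2 in the scrambled control, are uncertain. *IRF8*, a transcription factor of B-cell and myeloid development, closed the 10 with a rise from 113 to 674, 5.97-fold, and a scrambled level of 253.

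Within the RB pathway, the D-type cyclins and their kinases moved little at RNA level, with *CCND2* as the exception. *CCND2* (chromosome 12, 4273762 to 4305353) was at 853 with DMSO, 681 with scrambled shRNA and 2257 with palbociclib, a rise of 2.64-fold. It was the member of this list that rose, 1 of 4 measured, where 14.6% of all measured genes did. *CCND3* was at 7466 and 5674, 76.0% of the DMSO level, within the 1.5-fold limit. *CDK4* was at 4474 and 4663, and *CDK6* at 5117 and 6016, with a scrambled level of 3455 for *CDK6*. *CCND1* was below the minimum, at 4.93 and 6.25. Per kilobase of gene model length, the level of *CCND3* went from 3572 with DMSO to 2715 with palbociclib and that of *CCND2* from 131 to 346. Whether the levels already allow for length is not given in the sources used here, but *CCND3* was the higher of both with and without this division.

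The E2F genes did not move alike. The activators *E2F1* and *E2F2* fell, *E2F1* from 2064 to 639 and *E2F2* from 1794 to 382. The late repressors fell as well, *E2F7* from 334 to 79.7 and *E2F8* (chromosome 11, 19224063 to 19241655) from 899 to 152, or 16.9% of control. For these 4 genes the scrambled levels were above the DMSO levels. *E2F3*, another activator, was at 1775 and 1698. *E2F4*, the E2F of resting cells, was at 3362 and 4727, *E2F5* at 1308 and 1371, and *E2F6* at 670 and 488. Of the dimerisation partners, *TFDP2* rose from 36.2 to 96.5, while the far more abundant *TFDP1* was at 7187 and 5641. In the list of 10, 1 member rose (10%) and 4 fell (40%), beside 14.6% and 14.3% of all measured genes. The median log2 ratio of the list was −0.40.

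Of the MuvB list, 4 of 7 genes fell (57.1%) and none rose, beside 14.3% and 14.6% of all measured genes. *FOXM1* went from 3355 to 830 and *MYBL2* from 7668 to 2143, which left 24.8% and 27.9% of the DMSO levels. These encode the factors that join MuvB in S and G2 phase to switch on mitotic genes. The core subunits *LIN9* (722 to 296) and *LIN54* (916 to 406), the latter being the subunit that touches CHR DNA, fell as well. *LIN52* was at 181 and 125, *LIN37* at 180 and 155, and *RBBP4*, also part of other chromatin complexes, at 9164 and 7039.

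The pocket proteins did not move alike. *RBL1*, the p107 gene and itself an E2F target, fell from 1520 to 421, 27.7% of control. *RB1* fell from 5929 to 3429 against DMSO, but with scrambled shRNA its level was 4021, against which it is within 1.5-fold. *RBL2*, the p130 gene, was at 3117 and 2517. The CDK inhibitor genes moved down where they moved. *CDKN2C*, which encodes the CDK4 and CDK6 inhibitor p18 and lies on chromosome 1 (50960745 to 50974634), fell from 426 to 78.2, 18.4% of control, with 363 in the scrambled control. *CDKN1C* fell from 13.9 to 6.25, close to the minimum level. *CDKN1B* (1397 to 918) and *CDKN2D* (185 to 113) fell against DMSO, while scrambled levels of 1177 and 157 lay within 1.5-fold of palbociclib. *CDKN1A* was at 1696 and 1530. *CDKN2A* and *CDKN2B*, at 1.93 and 3.56 with DMSO, were not measured.

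**Figure D2:**
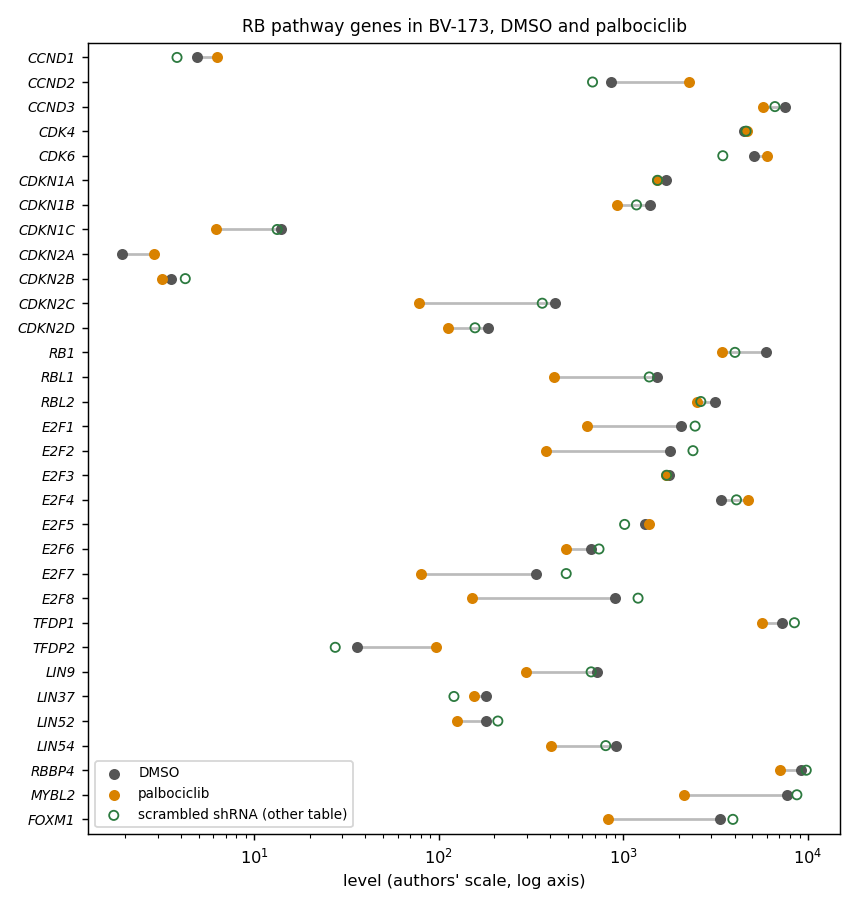
DMSO (grey), palbociclib (orange) and scrambled shRNA (open green, from another table) levels of the RB pathway genes in BV-173 on a log axis, 1 group value per dot and no error available. The wide gaps are those of *CDKN2C*, *RBL1*, *E2F1*, *E2F2*, *E2F7*, *E2F8*, *MYBL2* and *FOXM1*, all lower with palbociclib, and of *CCND2* and *TFDP2*, which were higher.

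DNA replication genes fell as a group. Of 25 genes of origin licensing and firing, 22 fell and none rose, with a median log2 ratio of −1.30, beside the 14.3% of all measured genes that fell and the median of −0.00 over them. *CDT1*, which loads the MCM helicase, fell furthest, from 6668 to 1189, or 17.8% of control. *ORC1*, a subunit of the origin recognition complex, went from 1450 to 341. *GMNN*, whose product geminin holds CDT1 in check, went from 982 to 256, and *TICRR*, needed for origin firing, from 1514 to 448. Of 29 replication fork genes, 26 fell and none rose (median −1.35). They were led by *CHAF1B*, a subunit of the chromatin assembly factor (853 to 154), the topoisomerase *TOP2A* (13689 to 2658), the primase subunit *PRIM1* (1858 to 443) and the nuclease and helicase *DNA2* (1093 to 283). The scrambled shRNA levels of these 8 genes all lay closer to DMSO than to palbociclib.

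The promoters of 3 licensing genes show the E2F words that this list held often, in capitals and in the same orientation to the gene. They lie at chr16:88803727-88803788 on the plus strand (*CDT1*), chr6:24775306-24775367 on the plus strand (*GMNN*) and chr7:100101550-100101611 on the minus strand (*MCM7*).
CDT1: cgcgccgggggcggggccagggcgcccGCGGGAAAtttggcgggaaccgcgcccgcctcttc
GMNN: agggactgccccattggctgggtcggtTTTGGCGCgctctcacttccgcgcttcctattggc
MCM7: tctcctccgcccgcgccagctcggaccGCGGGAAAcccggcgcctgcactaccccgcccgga

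In *CDT1* and *MCM7* the word TTTCCCGC is read on the opposite strand, so that GCGGGAAA is printed. *MCM7*, a helicase subunit, fell from 12335 to 3919. These 3 were the licensing genes with the largest falls among those outside chromosome 8 whose window held an E2F word. Windows on chromosome 8 were left out when stretches were chosen.

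Of 26 nucleotide and folate genes 13 fell and 1 rose, beside 14.3% and 14.6% of all measured genes. Thymidylate synthase (*TYMS*) went from 6906 to 2016, thymidine kinase (*TK1*) from 1989 to 582 and the mitochondrial folate enzyme *MTHFD2* from 11121 to 3376. *IMPDH1* was the gene that rose, from 1742 to 2835, with a scrambled level of 2211 within 1.5-fold of palbociclib. Among 16 chromatin genes linked to replication, 14 fell and none rose, with *HMGB2* at 12557 and 2230, the remodeller *HELLS* at 1185 and 333, and the methyltransferase *EZH2* at 1860 and 611. Of 30 genes in the list of homologous recombination, Fanconi and mismatch repair, 26 fell and 1 rose. The list also held the DNA glycosylase gene *NEIL3*, its largest fall, and *UNG*, which was the gene that rose (567 to 901). *RAD51AP1*, a recombination factor, went from 1413 to 308, *FANCI* from 3959 to 873 and the checkpoint kinase *CHEK1* from 3359 to 764.

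All 41 genes of mitotic kinases, spindle and condensins fell, and no other of the 34 lists had every measured member past 1.5-fold. They had log2 ratios from −2.57 to −1.02 and a median of −1.79. Over all measured genes 14.3% fell and the median was −0.00. The proliferation marker *MKI67* was at 6751 with DMSO, 6519 with scrambled shRNA and 1151 with palbociclib. *KIF15*, a spindle motor, went from 1871 to 334 and the condensin subunit *SMC4* from 7289 to 1389. Of 34 kinetochore and checkpoint genes 33 fell (median −1.54), among them *NDC80* (1355 to 256), *CENPU* (3106 to 602) and *CENPE* (1993 to 393). Of the 11 genes of the E, A and B cyclins, CDK1, CDK2 and CDC25 phosphatases, 10 fell. *CCNB2* went from 2369 to 497, *CCNA2* from 3144 to 712, *CDC25C* from 294 to 70.8 and *CDK1* from 1981 to 490. In a culture taken as a whole, fewer cells in a phase and less RNA in each of them cannot be told apart.

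Of 21 genes of the APC/C and SCF ligases, which mark cyclins and other proteins for destruction, 9 fell (42.9%) and none rose, beside 14.3% and 14.6% of all measured genes, with a median of −0.44. The falls were led by the APC/C inhibitor *FBXO5* (1254 to 349), the ubiquitin-conjugating enzyme *UBE2C* (1108 to 337), securin (*PTTG1*, 2134 to 665) and the activator *CDC20* (3302 to 1176).

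Promoter words were counted in the same lists. The windows run from 250 bases before to 50 bases after the RefSeq start, both strands were searched, and a gene counted once however many matches it had. TTTGAA was held by 28 of the 35 mitotic genes with a window (80%) and by 14 of 27 kinetochore genes (51.9%), against 13.7% of 9331 measured genes and 18.2% of all 27195 genes with a window. It was held by 1 of 22 licensing genes and 1 of 25 fork genes. Other lists held it as well, among them 3 of 6 MuvB list genes (50%) and 7 of 15 replication chromatin genes (46.7%). It was also in 9 of 20 APC/C and SCF genes (45%) and 4 of 9 genes of the cyclin, CDK1, CDK2 and CDC25 list (44.4%). Lists outside the cell cycle held it too, such as 5 of 14 MHC class II genes (35.7%) and 8 of 24 B-lineage factors (33.3%). The Mediator kinase module had it in 2 of 5 genes (40%). Lysosome genes (7.14%) and ribosomal protein genes (12.9%) lay below the share of measured genes. The E2F words TTTGGCGC, TTTCCCGC and TTTGCGCG, counted together, were held by 12 of the 22 licensing genes (54.5%) and 9 of the 25 fork genes (36%), against 5.86% of measured genes and 3.27% of all. An E2F word was also in 3 of 8 E2F and DP genes (37.5%) and 5 of 15 replication chromatin genes (33.3%). Among the genes that fell, 22.2% held TTTGAA and 11.2% an E2F word, and among the genes that rose the shares were 10.9% and 3.49%.

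**Figure D3:**
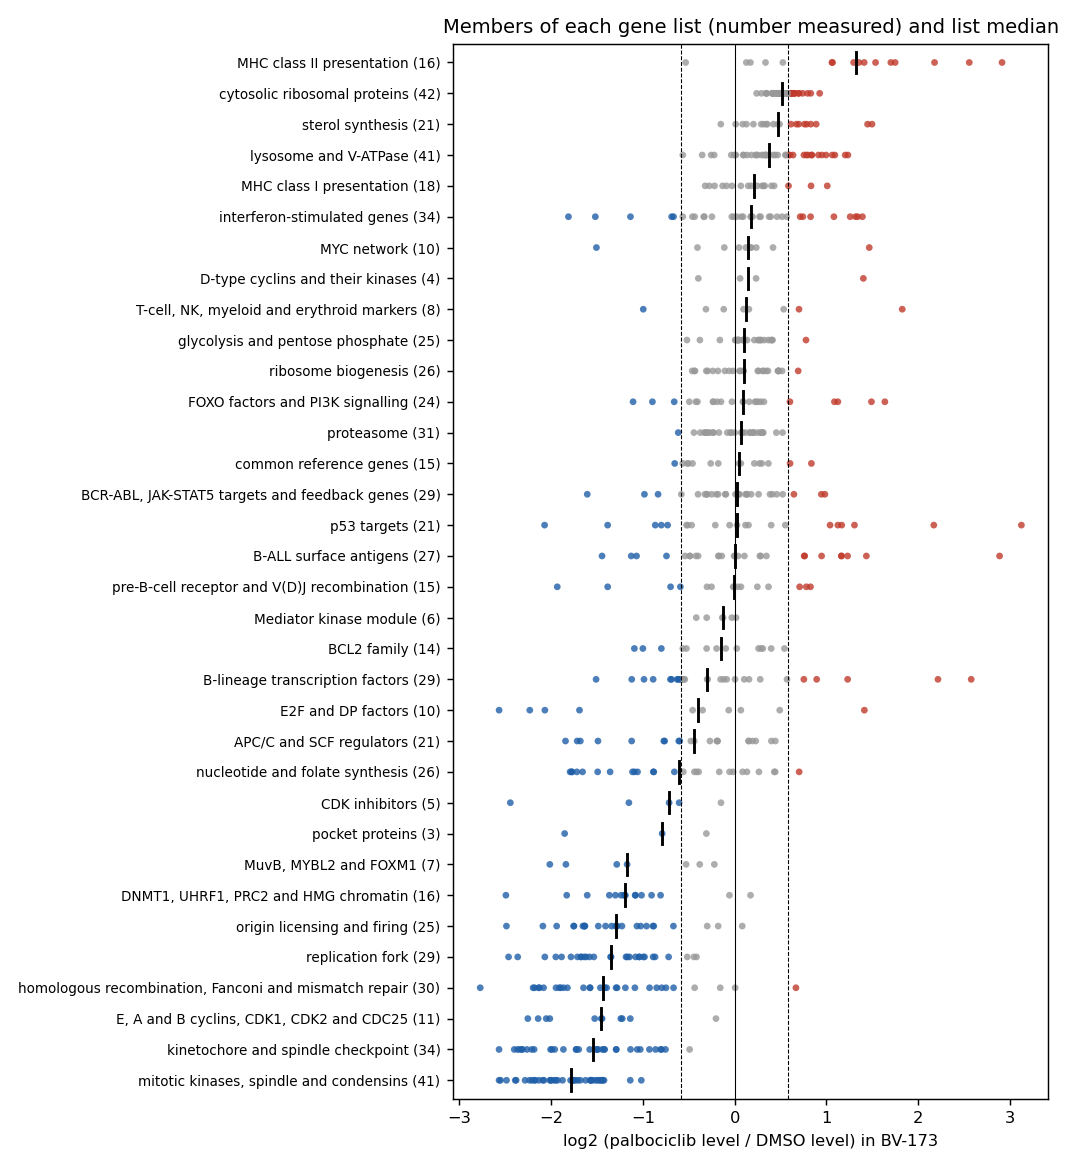
Log2 ratios of palbociclib over DMSO in BV-173 for the measured members of each gene list (number in brackets), blue and red for members at least 1.5-fold lower or higher, with the list median as a black bar; dashed lines mark 1.5-fold. The mitotic, kinetochore, cyclin, origin, fork, replication chromatin and repair lists gather at the bottom with most members below the lower line. Nucleotide and folate genes (13 of 26 below it) and APC/C and SCF regulators (9 of 21) sit higher. MHC class II is the list with its median above the upper line.

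In the list of the pre-B-cell receptor and recombination, the recombinase pair moved furthest down. *RAG1* and *RAG2*, which cut the immunoglobulin loci, lie side by side on chromosome 11 (36510353 to 36579762 and 36590996 to 36598236). *RAG1* was at 3536 with DMSO, 2907 with scrambled shRNA and 925 with palbociclib, 26.2% of control. *RAG2* was at 1047, 753 and 401, or 38.3% of control. Of the 15 genes of the pre-B-cell receptor and recombination list 4 fell (26.7%) and 3 rose (20%), beside 14.3% and 14.6% of all measured genes, with a median of −0.01. The rises included *SYK*, a receptor-proximal kinase at low level here (66.3 to 114), and *CD79A*, a signalling chain of the receptor (6978 to 11402). The terminal transferase *DNTT* went from 13503 to 8320, while its scrambled level was 5459, below both. *IGLL1* went from 17068 to 11327, within 1.5-fold of its scrambled level of 16288. *CD79A*, *DNTT* and *IGLL1* were picked out after their values were seen.

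Of 29 B-lineage transcription factors 10 fell (34.5%) and 5 rose (17.2%), beside 14.3% and 14.6% of all measured genes, with a median of −0.30. *IRF8* led the rises, and *BCL6*, the repressor of germinal centre B cells, followed with 313 with DMSO, 798 with scrambled shRNA and 1455 with palbociclib. *SPI1*, *SPIB* and *POU2F2* were the other rises, and for *POU2F2* (40.0 to 93.9) and *SPIB* (226 to 420) the scrambled levels of 104 and 944 were above the palbociclib levels. *ETS1* led the falls, from 849 to 298, with a scrambled level of 1944. *EBF1*, a factor that specifies the lineage, went from 5113 to 3148, with 4819 in the scrambled control. *PAX5*, which maintains it, went from 11865 to 7880, with 10369 in the scrambled control, against which its change was within 1.5-fold. *MYB*, which sustains precursor growth, went from 11587 to 5841, and *POU2AF1*, a co-activator of octamer factors, from 3193 to 1467. For *MYB* and *SPI1* the scrambled levels of 7351 and 1869 lay within 1.5-fold of palbociclib. *MYB*, *POU2AF1*, *SPI1* and *SPIB* were named after their values were seen.

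Of 27 surface antigen genes 8 rose (29.6%) and 4 fell (14.8%), beside 14.6% and 14.3% of all measured genes. *IL7R*, the alpha chain of the interleukin 7 receptor, fell from 2624 to 964, and the scrambled level was higher still at 3718. The receptor kinase *FLT3* fell from 3260 to 1492 and *MME*, the CD10 gene, from 8310 to 4966, within 1.5-fold of its scrambled level of 6296. The rises beside *MS4A1* were in *TNFRSF13C*, the BAFF receptor gene (87.2 to 236), *CD53* (3507 to 8231), *CD52* (4727 to 10595) and *CD44* (3128 to 7007), and in *CD72*, *CD37* and *CD69*. *FLT3*, *MME*, *CD52*, *CD44*, *CD72*, *CD37* and *CD69* were added to the rule's genes after their values were seen.

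Genes of MHC class II presentation rose together. Of 16 measured members 11 rose and none fell, beside 14.6% and 14.3% of all measured genes, with a median log2 ratio of 1.33. *HLA-DQA1* was at 195 with DMSO, 105 with scrambled shRNA and 1147 with palbociclib, 5.89-fold. *HLA-DOA*, a modulator of peptide loading, went from 405 to 1834 and *HLA-DMA*, the partner of *HLA-DMB*, from 296 to 995. The invariant chain gene *CD74* was among the most abundant and rose from 45508 to 116441. *CIITA*, the master co-activator of these genes, was at 1019 and 1467, below 1.5-fold, and its DNA-binding partners *RFX5* (3325 and 3631) and *RFXANK* (625 and 704) moved less. *CD74*, *CIITA*, *RFX5* and *RFXANK* were named after their values were seen, and reads of HLA genes can be shared among paralogs and depend on the alleles of the line. In the 18 genes of MHC class I presentation 3 rose (16.7%), *CALR*, *TAP1* and *PDIA3*, and none fell. *TAP1*, a peptide transporter subunit, went from 2261 to 4027, while for the chaperones *CALR* (7418 to 14932) and *PDIA3* (6064 to 9108) scrambled levels of 13338 and 8212 lay within 1.5-fold of palbociclib.

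**Figure D4:**
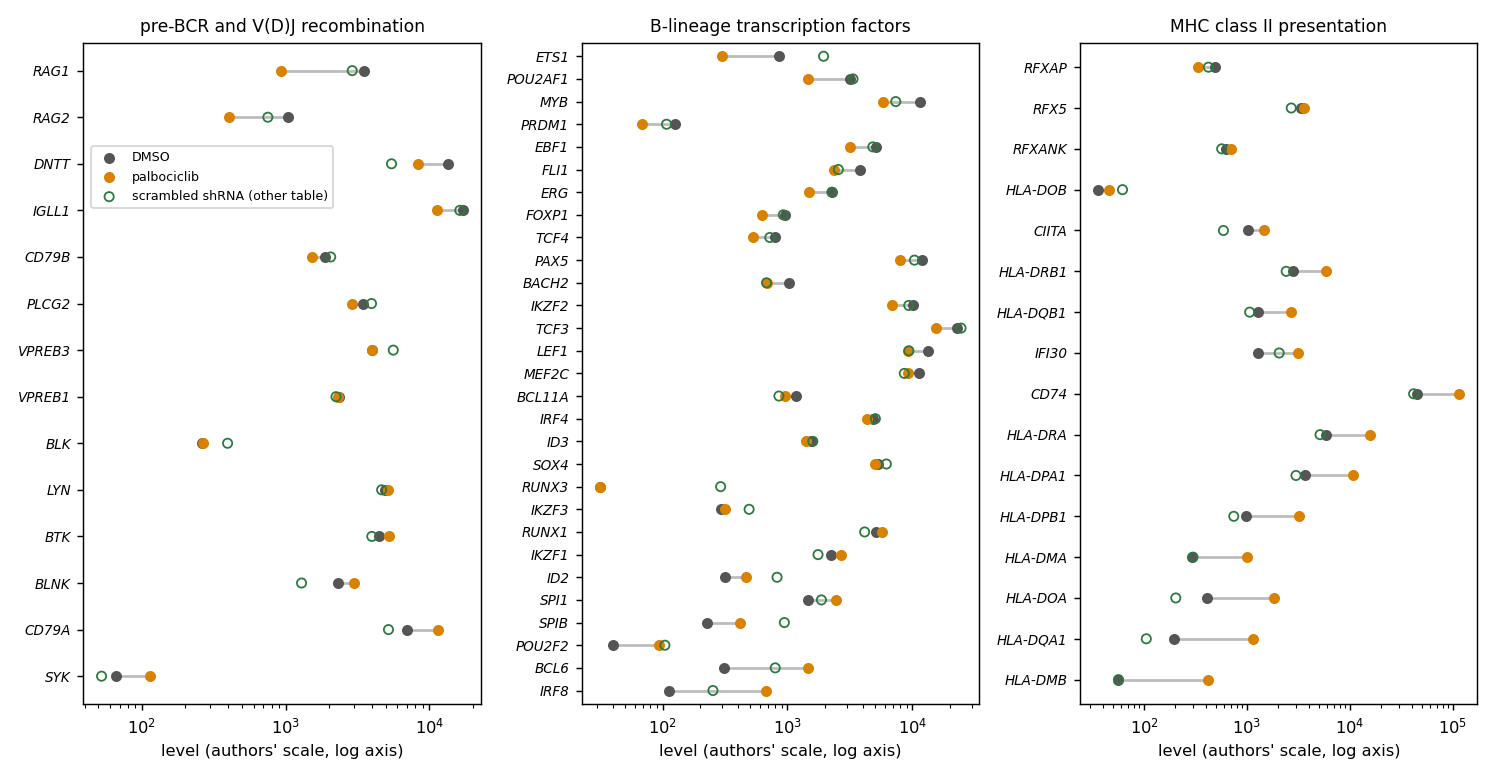
DMSO (grey), palbociclib (orange) and scrambled shRNA (open green, from another table) levels in BV-173 on log axes for members of 3 lists (1 member of the first is not drawn), sorted by the ratio of palbociclib over DMSO. *RAG1* and *RAG2* stand apart at the top of the first panel, and *IRF8* and *BCL6* at the foot of the second. In the third, 11 of the 16 class II genes have palbociclib at least 1.5-fold above DMSO, and 12 passed 1.5-fold upward against the scrambled control.

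Of 29 targets and feedback genes of BCR-ABL and STAT5 signalling 3 rose (10.3%) and 3 fell (10.3%). These shares were near the 14.6% and 14.3% of all measured genes, and the median log2 ratio was 0.03. Against the scrambled control 9 were higher and 2 lower, with a median of 0.20. With that control 1860 of 11240 measured genes were higher and 1547 lower. *GAB2*, an adaptor that binds BCR-ABL through GRB2, fell from 5095 to 1673, with 2589 in the scrambled control. *CISH*, a STAT5 target, rose from 1001 to 1927. *SPRED2*, a brake on RAS signalling, went from 993 to 502 with a scrambled level of 718, and *SOCS3*, another feedback gene, from 8.72 to 17.3 with 16.4 in the scrambled control, so neither passed 1.5-fold against scrambled shRNA. *ABL1* was at 4282 and 3986, a level that holds both the fusion and the unrearranged gene.

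Of 24 FOXO and PI3K pathway genes 5 rose (20.8%) and 3 fell (12.5%), near the 14.6% and 14.3% of all measured genes. *FOXO1* (chromosome 13, 40555667 to 40666641), a transcription factor restrained by AKT, was at 1555 with DMSO, 1674 with scrambled shRNA and 835 with palbociclib. *SESN3* (94.0 to 292), *PIK3IP1* (167 to 470) and *SESN1* (323 to 704), known FOXO or p53 targets that damp growth signalling, rose.

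*MYC*, the growth-promoting factor, was at 22226 with DMSO and 29698 with palbociclib, within 1.5-fold, and at 12309 with scrambled shRNA. Of the 10 measured members of its network 1 rose (10%) and 1 fell (10%), beside 14.6% and 14.3% of all measured genes. *MXD4*, an antagonist, rose from 601 to 1663 and *MXD3*, an antagonist expressed in cycling cells, fell from 270 to 94.9. The Mediator kinase module had no member past 1.5-fold of DMSO among 6, beside the same shares. *CDK8* was at 1007 and 816 and *CDK19* at 495 and 454. With scrambled shRNA *CDK19* was at 270, against which palbociclib was higher by 0.75 on the log2 scale, past 1.5-fold.

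Ribosomal protein genes moved a short way together. All 42 had a higher level with palbociclib, by log2 ratios from 0.24 to 0.93 with a median of 0.51. Of these, 13 (31.0%) rose past 1.5-fold, beside 14.6% of all measured genes that rose and 14.3% that fell. *RPS12* (16384 to 31141) and *RPL13A* (59276 to 105352) led. Of the 26 genes of ribosome biogenesis 1 rose (3.85%), *NHP2*, and its level with scrambled shRNA, 1773, lay within 1.5-fold of its palbociclib level of 2077. Lysosome and V-ATPase genes rose in 15 of 41 cases (36.6%) and fell in none (median 0.37). They were led by the lysosomal mannosidase *MAN2B1* (2492 to 5863), the proton pump subunits *ATP6V0E1* (796 to 1836) and *ATP6V0D1* (701 to 1496) and the acid glucosidase *GAA* (1611 to 3369). Sterol synthesis genes rose in 9 of 21 cases (42.9%) and fell in none, led by the reductases *TM7SF2* (400 to 1128) and *DHCR7* (405 to 1105). *LSS* (419 to 776) and *HMGCS1* (489 to 870) did not hold against the scrambled control, where they stood at 740 and 1376. With that control 2 sterol genes rose and 1 fell, where 1860 and 1547 of 11240 measured genes did. Glycolysis (1 of 25 up, 4%) and proteasome genes (1 of 31 down, 3.23%) moved less often than measured genes as a whole. Common reference genes (2 of 15 up, 13.3%, and 1 down, 6.67%) did not exceed the shares over all measured genes.

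The p53 target list gave no single direction, with 6 of 21 up (28.6%) and 5 down (23.8%), beside 14.6% and 14.3% of all measured genes, and *CDKN1A* within 1.5-fold of DMSO. After *TP53INP1*, the antiproliferative gene *BTG2* rose from 227 to 1023. *SESN2*, which is also an *ATF4* target, fell from 3167 to 753 and the repair factor *DDB2* from 980 to 375. In the *BCL2* family 3 of 14 genes fell, 21.4% beside 14.3% of all measured genes. They were the genes of the BH3-only proteins *HRK* (76.0 to 35.6), *BIK* (23.6 to 11.8) and *BBC3* (439 to 252). Scrambled levels of 16.8 for *BIK* and 272 for *BBC3* lay within 1.5-fold of palbociclib. Of 34 interferon-stimulated genes 8 rose (23.5%) and 5 fell (14.7%) against DMSO, beside 14.6% and 14.3% of all measured genes. Against the scrambled control 15 were higher and 5 lower, where 1860 and 1547 of 11240 measured genes were. *ISG20* (73.6 to 193) and *DDX60* (33.0 to 83.6) rose, and *HERC5* (378 to 108) and *XAF1* (1988 to 694) fell. Of the markers of other cell types, *CSF1R* rose from 145 to 513 and the granule enzyme gene *MPO* fell from 28.8 to 14.4. The summed myeloid level went from 200.1 to 557 through *CSF1R* alone. The myeloid marker *LYZ* was at 25.9 and 28.8, *CD14* at 0.58 and 0.61 and *ELANE* at 0.203 and 0.216.

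Beside the other lines treated in the same way, BV-173 changed less. At least 1.5-fold changes were seen in 36.4% of 11618 measured genes in NALM-6 and in 33% of 12043 in RS4;11, and over 10522 genes the SD of the log2 ratio was 0.63 in BV-173, 0.83 in NALM-6 and 0.92 in RS4;11. Across these genes, which are not replicates and went through the same processing, the BV-173 ratios correlated with a Pearson's r of 0.67 with NALM-6 and 0.70 with RS4;11. The median log2 ratio of the 41 mitotic genes was −1.79 in BV-173, −3.14 in NALM-6 and −5.22 in RS4;11, and in all 41 genes BV-173 kept the highest share of its DMSO level. The origin licensing list gave −1.30, −1.89 and −2.67 in the same order and the fork list −1.35, −2.20 and −2.78. MHC class II did not follow this order, with medians of 1.33, 1.15 and 1.29. With 1 value per group none of these differences could be tested.

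Of 8835 genes with a mean level of at least 100 in each of the 3 lines, the BV-173 ratio lay outside both others by at least 1 on the log2 scale for 224, higher for 175 and lower for 49. *PIM1*, a kinase gene switched on by STAT5 (chromosome 6, 37170152 to 37175428), gave the widest gap. In BV-173 it was at 2186 with DMSO and 1904 with palbociclib, but at 991 with scrambled shRNA, against which palbociclib was higher by 0.94 on the log2 scale. In NALM-6 it went from 907 to 52.5 and in RS4;11 from 740 to 23.6. The next were *FAM72D* and *FAM72C*, near-identical copies whose reads cannot be safely divided, the cytidine deaminase *APOBEC3B* and the kinetochore gene *SPC24*, all of which fell in every line and least in BV-173. *APOBEC3B* kept 20.7% of its DMSO level in BV-173, with log2 ratios of −2.27 there, −4.75 in NALM-6 and −6.89 in RS4;11.

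In the other direction the gap genes were *TMEM150A*, *RAG1*, *ARPP21*, *SMIM3* and *RIMS3*. *RAG1* fell in BV-173, with a log2 ratio of −1.93, and was at 25143 and 30303 in NALM-6 and at 5673 and 8294 in RS4;11. *ARPP21*, a gene of early B-cell precursors and neurons, fell from 1008 to 394 in BV-173 and had log2 ratios of 0.88 and 0.52 in the others. *RIMS3* fell from 1485 to 303 in BV-173 and stayed within 1.5-fold in both others. *TMEM150A* rose in all lines, least in BV-173, where it went from 242 to 546. *SMIM3* fell from 1708 to 1067 in BV-173, with a scrambled level of 1289, and rose in both others. *RAG2* fell in BV-173 with −1.38 on the log2 scale, against 0.76 and 0.30, and the B-lineage transcription factors as a list had medians of −0.30 in BV-173, 0.26 in NALM-6 and 0.13 in RS4;11. In NALM-6, 8 of 28 of these factors rose and 1 fell, where 18.8% and 17.6% of all measured genes did. In RS4;11, 8 of 29 rose and 3 fell, where 16.5% and 16.5% did.

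**Figure D5:**
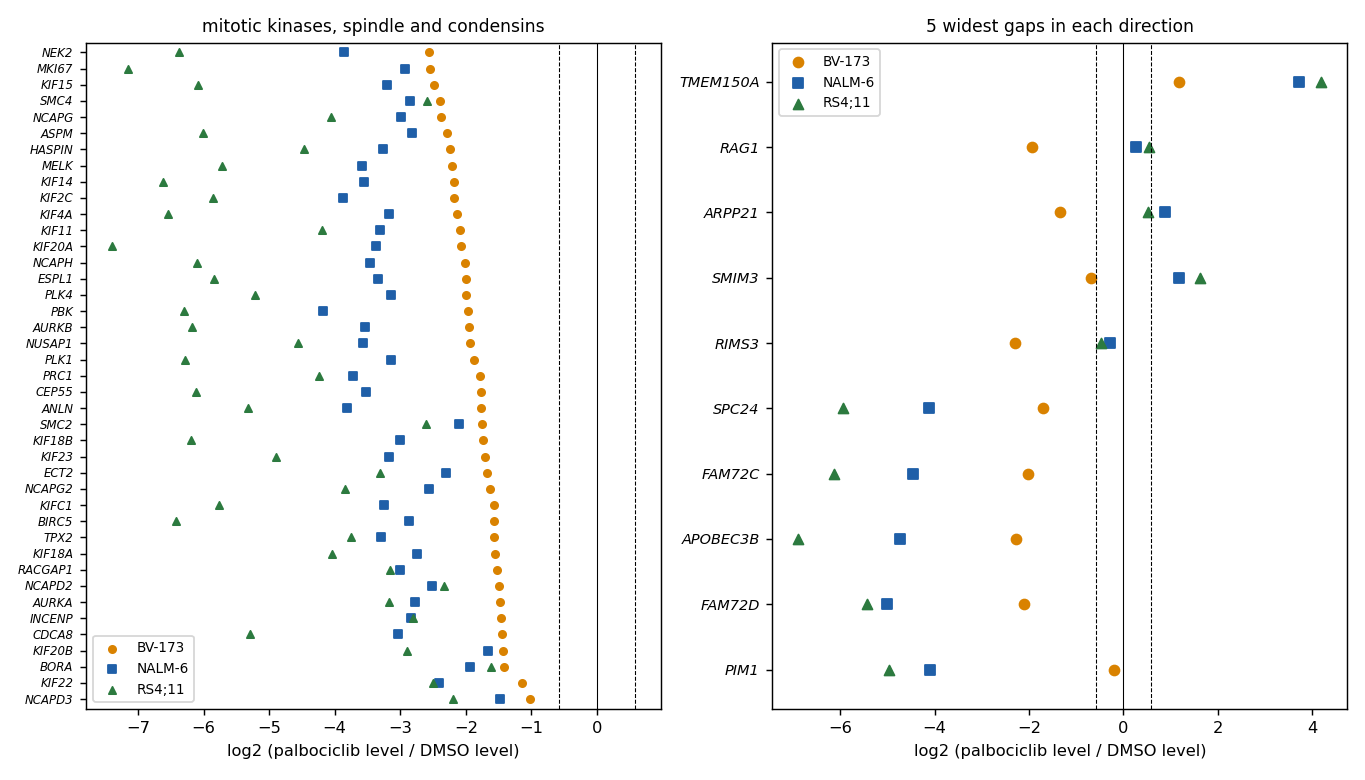
Log2 ratios of palbociclib over DMSO in BV-173 (orange circles), NALM-6 (blue squares) and RS4;11 (green triangles), each from its own table and with no error available. On the left, all 41 mitotic genes have BV-173 nearest to 0; on the right are the 5 genes with the widest gap in each direction, *PIM1* at −0.20 in BV-173 against −4.11 and −4.97, and *RAG1* at −1.93 against 0.27 and 0.55.

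The knockdown of *CCND3* in the same line, which had control samples of its own, moved fewer genes. At least 1.5-fold changes were seen for 9.44% of 11230 measured genes, 4.05% higher and 5.39% lower. Across 10522 genes its log2 ratios correlated with those of palbociclib with a Pearson's r of 0.52. Of the mitotic genes 24 of 41 fell with knockdown, with a median of −0.63, and of the licensing genes 7 of 25 (median −0.49). *E2F7* (−1.27) and *E2F8* (−0.91) fell with both, and so did *RAG1* and *RAG2*, whose levels were 2907 and 753 with scrambled shRNA and 1665 and 375 with knockdown. MHC class II genes had a median of 0.19 with knockdown, with 2 of 16 higher and 1 lower, beside 1.33 with palbociclib. *CCND2* had a log2 ratio of 0.31 with knockdown and 1.40 with palbociclib, while *MFAP5* rose with both, by 2.09 and 2.81.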

How the data were processed

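RNA-seq libraries of oligo-dT enriched RNA from BV-173 cells were grouped by treatment as labelled: palbociclib (1 µM, day 3, 3 samples) and DMSO (day 3, 2 samples). The series' description names SOAPnuke for read filtering, and the submitters' processing notes name Bowtie2, RSEM, DESeq2 and hg38, with versions not given in the sources used here. The authors deposited 1 table per comparison with a signal per gene and group, on a scale not given in the sources used here, and their own log2 fold changes, p-values and adjusted p-values, which were not used. Depth per sample and spread between samples are therefore unknown, and no test was run.

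The log2 ratio of both levels was computed with no pseudocount. Genes with a mean level of at least 10 were kept (3492 were not), and 1.5-fold marked a change. Positions and promoter windows are from RefSeq (GRCh38.p14), in which 14774 of 14797 genes were matched. The members and gene lists were chosen with earlier results of these data known. The list of ATF4 and amino acid stress genes and the use of the scrambled shRNA level as control were added after seeing the data. Genes were named by rule: the RB pathway members, 10 rises and 10 falls at a mean level of at least 100, up to 4 leading members and 1 opposite member per list, 7 fixed genes (FOXO1, MYC, CDK8, CDK19, ABL1, PAX5 and EBF1), 5 genes in each direction with the widest gap to the other lines, and whole lists of at most 12 genes. Others are stated where they occur. Some genes that the rule names are not reported here. The ratios and counts, tested on simulated data, were made with pandas 2.3.3 and numpy 2.4.6 under Python 3.11.15, and drawn with matplotlib 3.10.9. Alternatives were 2-fold, no minimum or a minimum of 100, pseudocounts of 1 and 10, centring on the median gene and scaling to the same sum.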

Additional observations from a re-analysis of the deposited data

How the results depend on the processing

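With 2-fold in place of 1.5-fold, 589 genes were higher and 688 lower. With 1.5-fold, scaling to the same sum gave 1397 higher and 1906 lower, and a minimum level of 100 gave 1100 and 1376. The share of genes at least 1.5-fold apart between both BV-173 controls was 6.95% at a minimum level of 100. Centring, no minimum, pseudocounts and scaling to the same sum turned the direction of no named gene. A pseudocount of 10 put *SOCS3* and *CDKN1C* within 1.5-fold, and the same sum did so for *PDIA3* and *EEF1A1*. With the scrambled shRNA level as control, chosen after seeing the data, 149 of the named genes kept their side of the limit, 17 no longer passed it, 7 passed it newly and 4 turned: *MS4A1* (log2 ratio −0.061), *POU2F2* (−0.13), *TFRC* (−0.15) and *HMGCS1* (−0.64). That control also took the medians of the CDK inhibitors (−0.40) and the pocket proteins (−0.21) inside the limit and those of the lysosome (0.59) and ribosomal protein lists (0.62) past it. The causes were not tested. No paired analysis was possible because the tables hold 1 value per group, and for the same reason no replicate could be left out. The SD of the log2 ratios was 0.85 at mean levels of 10 to 100 and 0.52 above 10000, and the depth behind them is unknown.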

Other observations

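Genes of the ATF4 response to amino acid shortage, a list put together after the values were seen, were lower with palbociclib in BV-173. ATF4 is the transcription factor that raises amino acid synthesis, transport and tRNA charging under stress. Of 35 measured members 29 fell and none rose, beside 14.3% and 14.6% of all measured genes, with a median log2 ratio of −1.21. *ATF4* itself went from 17433 with DMSO to 8763 with palbociclib, and its scrambled shRNA level was 16483. Among its partners and targets, *ATF5* went from 8990 to 1547, *TRIB3*, a pseudokinase gene, from 3412 to 630, and *DDIT3*, the CHOP gene, from 1148 to 222, with 537 in the scrambled control. *PHGDH*, the first enzyme of serine synthesis, went from 8327 to 1460, asparagine synthetase (*ASNS*) from 5015 to 885 and the cystine transporter gene *SLC7A11* from 980 to 257. Of the tRNA synthetase genes, *AARS1* went from 11813 to 4387 and *GARS1* from 11114 to 4447. *DDIT4* (5128 and 4582), *PYCR1* (4100 and 3658) and *ALDH18A1* (3315 and 4860) stayed within 1.5-fold.

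Against the scrambled control 22 of the 35 fell, with a median of −0.85, where 1547 of 11240 measured genes fell. The same list had medians of −1.04 in NALM-6 and −1.21 in RS4;11 with palbociclib. In NALM-6 28 of 35 members fell, and in RS4;11 27 of 34 did, beside 17.6% and 16.5% of all measured genes. In RS4;11 2 members rose, among them *ASNS* with a log2 ratio of 1.12. After *CCND3* knockdown in BV-173 the median was 0.09, with 1 member higher and none lower, where 9.44% of all measured genes moved.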
